A study of Mus musculus with 12 samples.

Results

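The Cyp2a genes encode cytochrome P450 enzymes of the endoplasmic reticulum, and 4 of them were followed here: Cyp2a4, Cyp2a5, Cyp2a12 and Cyp2a22. They were taken by gene symbol and are 4 of the 55385 genes in the files. The sum of Cyp2a4 and Cyp2a5, whose transcripts are nearly identical, was analysed as a further quantity. The RNA came from primary hepatocytes of 3 mice, plated on collagen with dexamethasone and serum, and was sequenced after 48 h of small interfering RNA (siRNA) treatment in 12 libraries. Each mouse gave 1 library to each of 4 groups of 3. The double knockdown received siRNAs to Hnf4a and Cebpa together, the siHnf4a and siCebpa groups received 1 of them, and the control cells received siCon. Hnf4a and Cebpa encode transcription factors that maintain hepatocyte gene expression. Strain, sex and age of the mice are not given in the labels, and nothing in the labels separates the amount of siRNA given singly from that given together.

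P450 enzymes insert oxygen into their substrates with electrons supplied by NADPH-cytochrome P450 reductase. Among the mouse enzymes, Cyp2a5 is the coumarin hydroxylase and the counterpart of human CYP2A6, the main nicotine-oxidising enzyme, and Cyp2a4 hydroxylates testosterone. Cyp2a12 hydroxylates steroids and returns a hydroxyl group to bile acids that gut bacteria have dehydroxylated. In mouse liver, Cyp2a5 is known as a gene induced by chemical and oxidative stress through the factor NRF2 and as a target of HNF4A.

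All 4 genes lie in the Cyp2 cluster of chromosome 7 (GRCm38), in the order Cyp2a4 (ENSMUSG00000074254.4, 26307169 to 26315088, plus strand), Cyp2a5 (ENSMUSG00000005547.14, 26835305 to 26843548, plus strand), Cyp2a22 (ENSMUSG00000091867.2, 26931631 to 26939384, minus strand) and Cyp2a12 (ENSMUSG00000060407.6, 27029081 to 27037375, plus strand). They form 2 close pairs. The coding sequences of Cyp2a4 and Cyp2a5 were identical at 1459 of 1482 aligned bases (98.5%), and those of Cyp2a12 and Cyp2a22 at 1431 of 1476 (97.0%). Between the pairs, identity was 77.1% to 79.0%. Promoters followed the same pairing, with 294 of 299 aligned bases identical for Cyp2a4 and Cyp2a5 and 261 of 284 for Cyp2a12 and Cyp2a22.

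The promoters are shown because both siRNA targets are factors that bind DNA in such regions. Each stretch runs from 150 bases before the RefSeq start to 20 bases after it, and capitals mark matches to an HNF4-type motif (CAAAGNCC), a C/EBP-type motif (TTGCNNAA) and the TATA box (TATAAA). The sequences are from RefSeq, build GRCm38.p6: Cyp2a4 at chr7:26307042-26307211 (plus strand), Cyp2a5 at chr7:26835189-26835358 (plus strand), Cyp2a12 at chr7:27028940-27029109 (plus strand) and Cyp2a22 at chr7:26939367-26939536 (minus strand).
Cyp2a4: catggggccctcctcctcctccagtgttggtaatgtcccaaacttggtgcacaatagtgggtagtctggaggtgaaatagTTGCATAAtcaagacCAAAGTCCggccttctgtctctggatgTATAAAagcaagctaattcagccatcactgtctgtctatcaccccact
Cyp2a5: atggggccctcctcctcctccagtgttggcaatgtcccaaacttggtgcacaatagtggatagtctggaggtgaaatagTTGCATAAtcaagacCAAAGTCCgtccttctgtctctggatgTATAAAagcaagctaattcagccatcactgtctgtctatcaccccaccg
Cyp2a12: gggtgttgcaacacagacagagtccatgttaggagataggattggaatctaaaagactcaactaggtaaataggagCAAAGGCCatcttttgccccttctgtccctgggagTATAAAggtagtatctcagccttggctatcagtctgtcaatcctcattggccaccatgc
Cyp2a22: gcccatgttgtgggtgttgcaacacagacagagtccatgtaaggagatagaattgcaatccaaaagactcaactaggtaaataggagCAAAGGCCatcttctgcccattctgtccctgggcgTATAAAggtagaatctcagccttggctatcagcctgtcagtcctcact

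Every one of the 4 promoters held the HNF4-type motif, whose first base stood at position -55 from the start in Cyp2a4, -56 in Cyp2a5, -74 in Cyp2a12 and -63 in Cyp2a22. The C/EBP-type motif was found in Cyp2a4 at -70 and in Cyp2a5 at -71, just before the HNF4-type match and not overlapping it, and these letters did not occur in the windows of Cyp2a12 or Cyp2a22. Motifs were chosen after the sequences had been seen and were searched on both strands of all 300 bases per gene, from 250 before the start to 50 after it. Of 32851 mouse promoters of that length, 5.95% held the HNF4-type motif, 10.8% the C/EBP-type motif, 0.749% both and 13.6% the TATA box. An antioxidant response element (TGACNNNGC), the motif of NRF2, had no match in the 4 windows against 12.4% of all promoters, and the xenobiotic response element of the aryl hydrocarbon receptor (GCGTG) had none against 32.4%. Sequence beyond these 300 bases was not searched, so elements further from the start would be missed. A match is a description of the letters and was not tested as a binding site.

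Shared sequence also bears on the counts, since reads from identical stretches must be divided between genes. The annotated Cyp2a4 transcript contains 1708 words of 31 bases, of which 702 (41.1%) occur in no other gene and 955 (55.9%) also in Cyp2a5. In Cyp2a5 822 of 1983 words (41.5%) are its own. For Cyp2a12 965 of 1651 words (58.5%) and for Cyp2a22 1070 of 1766 (60.6%) occur in no other gene, and nearly all the others are shared within that pair. Single values of Cyp2a4 and Cyp2a5 are therefore uncertain in how reads were split, and the sum is the primary value.

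**Figure D1:**
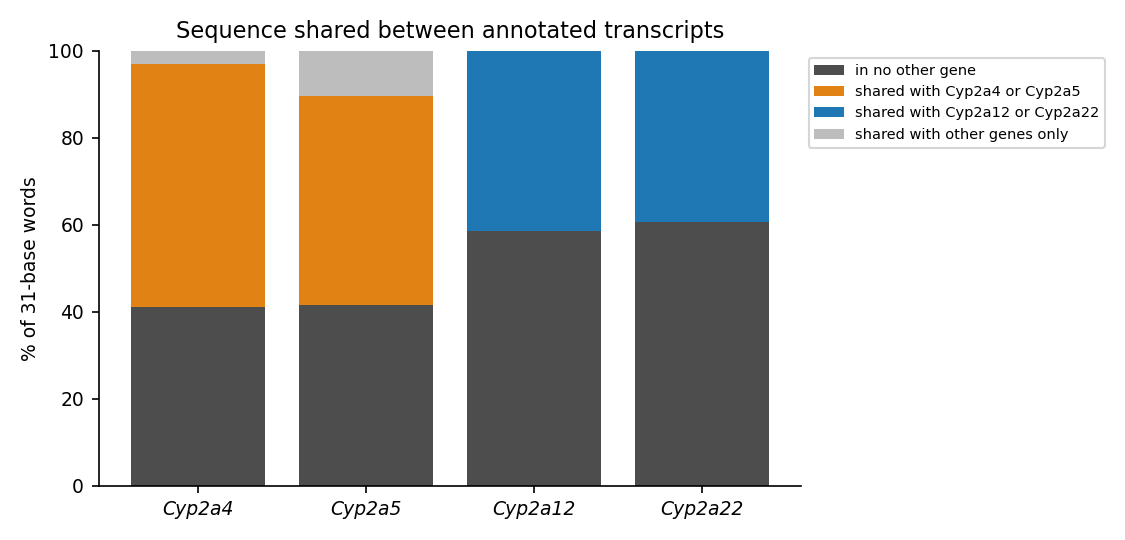
Share of the 31-base words of each Cyp2a transcript (vertical axis, % of words) that occur in no other annotated gene, in its close relative or only in other genes. Own words made up 41.1% of Cyp2a4, 41.5% of Cyp2a5, 58.5% of Cyp2a12 and 60.6% of Cyp2a22.

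Estimated counts summed to between 22453445 and 25008195 per library, and 15090 genes entered the test. Levels are given as CPM, counts scaled to library size with the SD over 3 mice, and Hnf4a stood at 35.9 ± 3.67 CPM in the double knockdown and 54.1 ± 6.8 in siHnf4a, against 211 ± 74 in siCebpa and 229.6 ± 78 in siCon. Cebpa was at 94.2 ± 13.1 CPM in the double knockdown and 30.0 ± 3.81 in siCebpa, against 214 ± 17 in siHnf4a and 193 ± 16.2 in siCon, so its knockdown was shallower in the double knockdown.

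In siCon cells Cyp2a4 was the most abundant of the 4 per transcript length, at 128 ± 6.51 TPM (SD, n = 3; counts scaled for transcript length and library size), followed by Cyp2a12 at 85.1 ± 30.5, Cyp2a5 at 17.9 ± 2.88 and Cyp2a22 at 3.29 ± 2.26. Mice differed little in Cyp2a4 and strongly in the second pair. The highest siCon library exceeded the lowest 1.09-fold for the Cyp2a4 and Cyp2a5 sum, 2.11-fold for Cyp2a12 and 6.03-fold for Cyp2a22. Mouse 3 was the lowest of the 3 mice for Cyp2a12 in every one of the 4 groups.

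The order of the family by level changed where the Hnf4a siRNA was given. In TPM, Cyp2a4 averaged 436 ± 58.4 in the double knockdown and 518 ± 24.3 in siHnf4a, where Cyp2a12 averaged 2.31 ± 0.585 and 3.21 ± 1.89. In siCebpa Cyp2a4 stood at 269 ± 44.2 TPM and Cyp2a12 at 72.6 ± 33.0. Among all 55385 listed genes, Cyp2a4 ranked 328th in mean TPM in the double knockdown, 292nd in siHnf4a and 503rd in siCebpa, against 1143rd in siCon. Cyp2a12 ranked 11331st, 10739th and 2013th in those knockdowns, against 1795th in siCon.

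**Figure D2:**
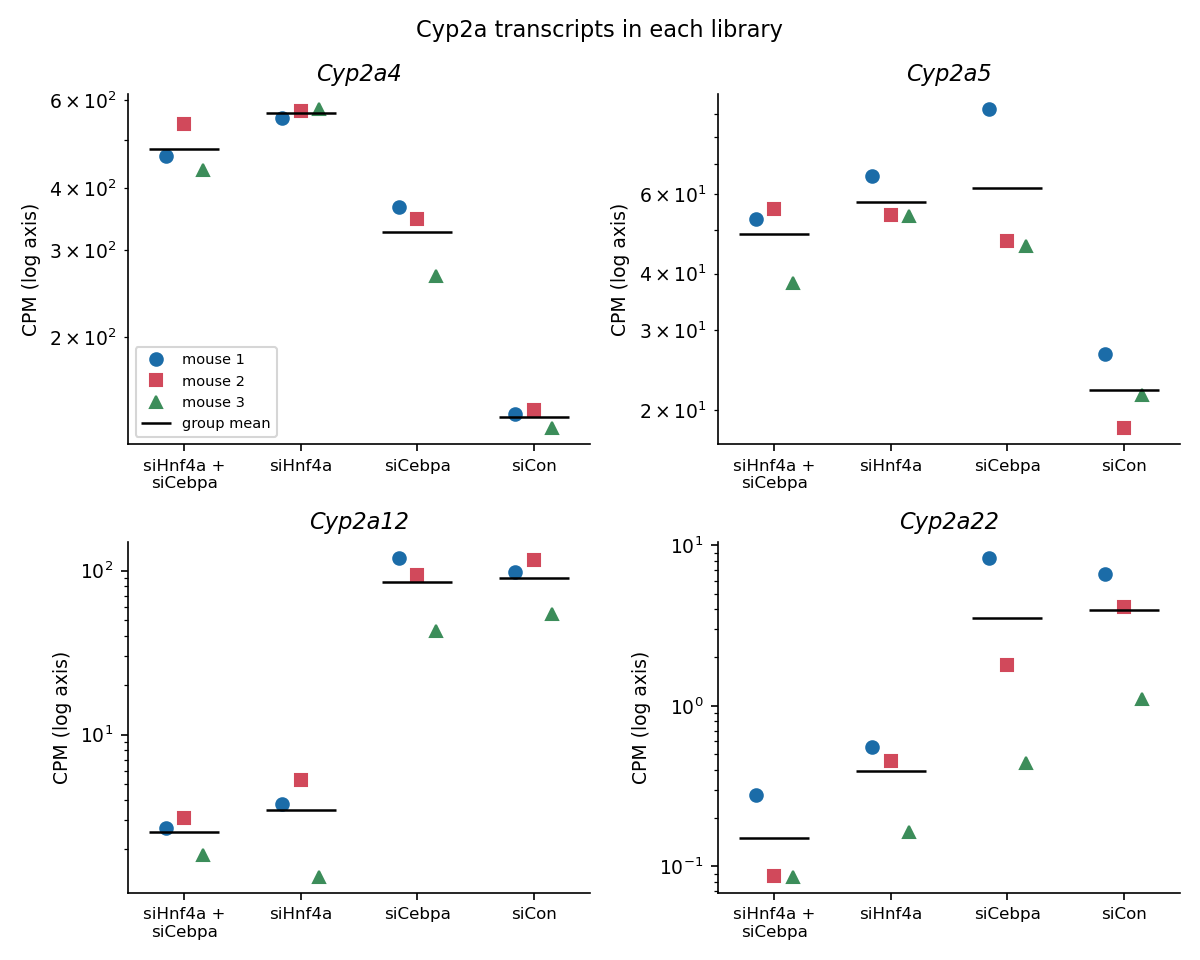
CPM of each Cyp2a gene in each library (log axis), by group from left to right, with 1 symbol per mouse and a line at the group mean. Cyp2a4 and Cyp2a5 were higher in every knockdown library than in every siCon library, and Cyp2a12 lay at 5.27 CPM or less in all libraries that received the Hnf4a siRNA.

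The first question was what loss of both factors, or of each alone, does to the Cyp2a4 and Cyp2a5 pair. Their summed CPM in mice 1, 2 and 3 was 516, 593 and 473 in the double knockdown. It was 618, 626 and 629 in siHnf4a and 458, 393 and 312 in siCebpa. In siCon it was 167, 161 and 153. All 9 knockdown libraries were higher than all 3 siCon libraries, and the 4 groups did not overlap one another.

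Against siCon the sum rose 3.29-fold in the double knockdown (1.72 log2 units, SE 0.14; adjusted p = 3.15e-05 by the edgeR quasi-likelihood test, corrected by Benjamini-Hochberg over all genes). It rose 3.90-fold in siHnf4a (1.96 ± 0.14, adjusted p = 2.73e-05) and 2.42-fold in siCebpa (1.27 ± 0.13, adjusted p = 0.00125). These 3 comparisons share the siCon libraries. The sum passed the threshold of 0.05 in all 14 alternatives of each comparison. In bulk RNA, fewer cells of a kind and less RNA per cell cannot be told apart.

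Cyp2a4, the testosterone hydroxylase, carried most of the sum. It was at 463, 537 and 435 CPM in the double knockdown, at 553, 572 and 575 in siHnf4a and at 366, 346 and 266 in siCebpa, against 140.25, 143 and 131 in siCon. No group overlapped another. Its rise was 1.79 ± 0.13 log2 units in the double knockdown (adjusted p = 2.24e-05), 2.04 ± 0.13 in siHnf4a (adjusted p = 1.67e-05) and 1.24 ± 0.12 in siCebpa (adjusted p = 0.00111; edgeR). By p-value it ranked 13th, 5th and 10th of the 15090 genes tested.

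Cyp2a5, the coumarin hydroxylase, was lower in level and more variable. It was at 52.8, 55.7 and 38.1 CPM in the double knockdown, at 65.6, 53.8 and 53.6 in siHnf4a and at 92.2, 47.2 and 46.1 in siCebpa, against 26.6, 18.2 and 21.6 in siCon. The knockdown groups overlapped one another, and none overlapped siCon; the highest value, in the siCebpa library of mouse 1, was well above the other two of its group. Cyp2a5 rose by 1.14 ± 0.26 log2 units in the double knockdown (adjusted p = 0.0159), 1.38 ± 0.27 in siHnf4a (adjusted p = 0.00670) and 1.48 ± 0.27 in siCebpa (adjusted p = 0.0150; edgeR). The call in the double knockdown was lost without its library of mouse 1 (1.07, adjusted p = 0.0503) or mouse 2 (1.04, 0.0628), and without siCon of mouse 2 (1.02, 0.0770) or mouse 3 (1.12, 0.0593). That in siCebpa was lost without siCon of mouse 2 (1.35, adjusted p = 0.0918) or mouse 3 (1.46, 0.0759), and in a fit of siCebpa and siCon alone (1.48, 0.0976). These refits did not pair the libraries of a mouse. A fit of all libraries with mouse as a block pairs them. There Cyp2a5 was at 1.15 ± 0.18 in the double knockdown (adjusted p = 0.000848) and 1.44 ± 0.18 in siCebpa (adjusted p = 0.000717, edgeR).

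Cyp2a4 made up 90.8% ± 1.1 of the pair's counts in the double knockdown and 90.8% ± 1.18 in siHnf4a, against 84.4% ± 4.13 in siCebpa and 86.2% ± 2.34 in siCon (SD, n = 3 each). Every library with the Hnf4a siRNA, at 89.4% to 91.9%, lay above every library without it, at 79.9% to 88.7%. The difference was 4.59 percentage points for the double knockdown against siCon and 4.57 for siHnf4a against siCon. For each the two-sided exact permutation p was 0.1, the smallest that 3 against 3 libraries allow, and 0.15 when adjusted over 6 comparisons, so the design cannot reach the threshold. For siCebpa against siCon the difference was -1.84 points (exact permutation p = 0.6). These shares depend on how reads were split between the genes.

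Cyp2a12, the bile acid and steroid hydroxylase, went the other way, and only where the Hnf4a siRNA was given did it pass the test. It was at 2.71, 3.12 and 1.85 CPM in the double knockdown and at 3.78, 5.27 and 1.36 in siHnf4a. In siCebpa it was at 119, 94.2 and 42.7 CPM, and in siCon at 98.6, 116 and 54.7. The groups with the Hnf4a siRNA did not overlap those without it, and siCebpa overlapped siCon.

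In mice 1, 2 and 3 the CPM of Cyp2a12 over that of the same mouse's siCon library was 0.0274, 0.0270 and 0.0338 in the double knockdown and 0.0383, 0.0456 and 0.0248 in siHnf4a. The log2 fold change was -5.13 ± 0.54 in the double knockdown (adjusted p = 0.000209) and -4.69 ± 0.52 in siHnf4a (adjusted p = 0.000326; edgeR), both past the threshold in all 14 alternatives. Counted from the most negative of the 15090 tested genes, it ranked 13th in the double knockdown and 9th in siHnf4a. In siCebpa the difference from siCon was -0.07 ± 0.43 (95% interval -1.02 to 0.88, adjusted p = 0.950, edgeR). Within mice, siCebpa over siCon was 1.21-fold, 0.815-fold and 0.780-fold.

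Cyp2a22, for which no substrate is stated here, had few counts. Its estimated counts were 7.48, 2.03 and 2.04 in the double knockdown and 14.1, 11.3 and 4.35 in siHnf4a. They were 193, 41.9 and 10.3 in siCebpa and 168, 103 and 26.5 in siCon. The groups with the Hnf4a siRNA lay below all siCon libraries, and the siHnf4a and siCebpa groups overlapped in CPM.

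Relative to siCon, Cyp2a22 fell by 4.66 ± 1.13 log2 units in the double knockdown (adjusted p = 0.0196) and by 3.33 ± 1.00 in siHnf4a (adjusted p = 0.0486; edgeR). In siCebpa the difference was -0.17 ± 0.86 (95% interval -2.06 to 1.71, adjusted p = 0.938, edgeR). The call in the double knockdown was lost without its library of mouse 2 (-4.39, adjusted p = 0.0809) or mouse 3 (-4.39, 0.0752), or siCon of mouse 2 (-4.63, 0.0513). That in siHnf4a was lost without any 1 of its own libraries (-3.67, -3.43 and -2.96 without mouse 1, 2 and 3; adjusted p = 0.0994, 0.136 and 0.143) and without siCon of mouse 1 (-2.73, 0.114) or mouse 2 (-3.29, 0.115). These leave-out fits did not pair the libraries of a mouse. With mouse as a block over all libraries, Cyp2a22 was at -4.77 ± 0.51 in the double knockdown (adjusted p = 8.39e-05, edgeR). In siHnf4a it was then at -3.34 ± 0.44 (adjusted p = 0.000314, edgeR). How reads were split with Cyp2a12, with which Cyp2a22 shares 39.4% of its words, is uncertain. Cyp2a22 made up 5.75% ± 3.77, 10.9% ± 2.51, 3.16% ± 2.96 and 3.94% ± 2.20 of that pair in the double knockdown, siHnf4a, siCebpa and siCon.

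**Figure D3:**
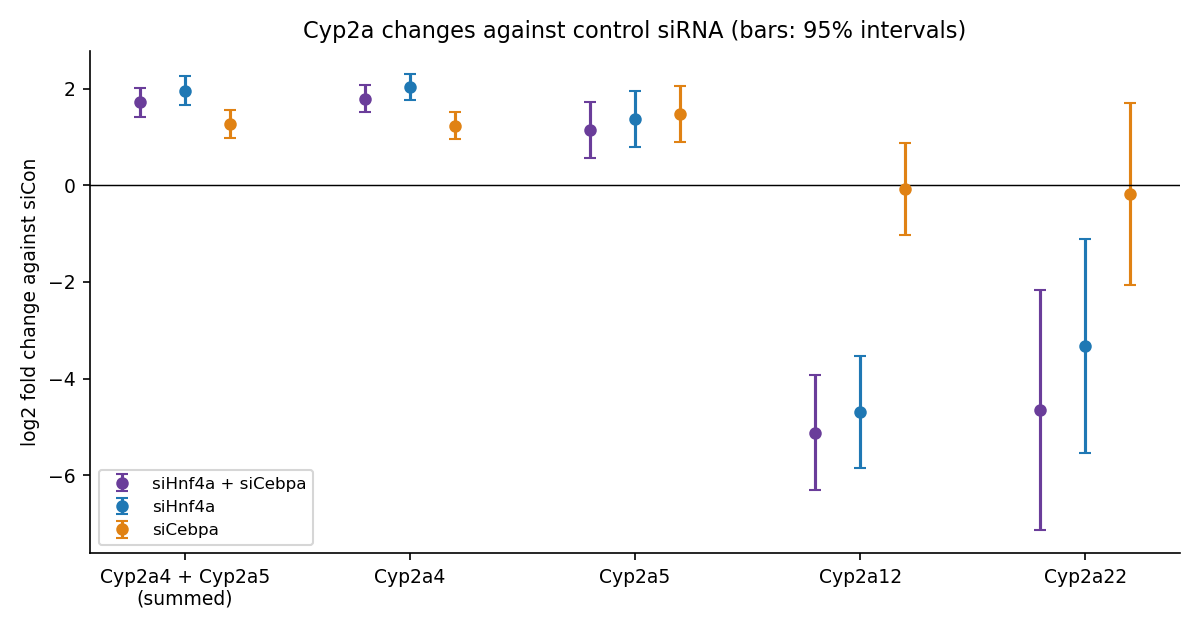
Log2 fold change against siCon (points) with 95% intervals (bars) for the Cyp2a4 and Cyp2a5 sum and each gene, in the double knockdown, siHnf4a and siCebpa from left to right. The sum lay at 1.72, 1.96 and 1.27, and Cyp2a12 at -5.13, -4.69 and -0.07.

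Over all genes tested, 6.9% were called higher and 7.13% lower in the double knockdown, 7.24% and 7.29% in siHnf4a, and 2.94% and 1.72% in siCebpa, where 444 genes were higher and 260 lower; on log2 TPM with a pseudocount of 1 the split in siCebpa was 96 and 345. Of the 4 Cyp2a genes, 2 were higher and 2 lower in the double knockdown and in siHnf4a, and 2 were higher and 0 lower in siCebpa. With mouse as a block in the fit, which pairs the libraries of a mouse, 13.8% of all genes were called higher and 15.6% lower in the double knockdown, 14.5% and 15.5% in siHnf4a, and 8.73% and 8.11% in siCebpa.

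Marker levels of the cultures were read beside these changes. Summed CPM of 8 hepatocyte markers ranged over 4620 to 8572 (double knockdown), 6024 to 12425 (siHnf4a), 7173 to 15671 (siCebpa) and 7147 to 11074 (siCon). Alb made up most of this sum, at 5453 ± 1870, 8502 ± 2931, 8879 ± 4366 and 7905 ± 1811 CPM in that order. The median log2 fold change of the 8 markers against siCon was -0.51 in the double knockdown, -0.02 in siHnf4a and 0.12 in siCebpa. Of these markers 1 of 8 fell in the double knockdown against siCon and none in either single knockdown. Kupffer cell and macrophage markers (11 genes) summed to 93.1 to 354 CPM, 96.0 to 422, 59.1 to 370.4 and 83.5 to 262 in the same order of groups. Most of that sum was Cd68, at 179 ± 146, 207 ± 180, 158 ± 180 and 133 ± 100 CPM. Each of the other markers, with group means of 4.33 CPM or less, had a lower mean in every knockdown than in siCon. The list's median log2 fold change against siCon was -1.24 in the double knockdown, -1.0015 in siHnf4a and -1.21 in siCebpa. Of its tested genes, 0 of 10 passed the threshold in any knockdown. Of the other marker lists, 2 of 4 tested biliary genes fell in the double knockdown and in siHnf4a, against 0 of 4 in siCebpa, while 0 of 7 endothelial, 0 of 7 stellate and 0 of 1 lymphocyte genes were called in any of the 3. With the block, 5, 3 and 3 Kupffer cell and macrophage genes, 4, 4 and 3 biliary genes, 3, 1 and 2 endothelial genes and 1, 2 and 0 stellate genes fell in the double knockdown, siHnf4a and siCebpa, and 4, 1 and 2 hepatocyte markers fell while 1, 2 and 0 rose. Over all genes, 7.13%, 7.29% and 1.72% fell without the block in the same order. With it, 15.6%, 15.5% and 8.11% fell and 13.8%, 14.5% and 8.73% rose. The part of the marker shifts in the Cyp2a changes was not tested.

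The single knockdowns were then set against each other. Hnf4a stood at 54.1 CPM in siHnf4a against 229.6 in siCon, and Cebpa at 30.0 in siCebpa against 193 in siCon. Since the depth of knockdown differed, the comparison cannot show how far the family depends on each factor. The sum was higher in siHnf4a than in siCebpa by 0.69 ± 0.13 log2 units (adjusted p = 0.00619), and Cyp2a4 by 0.80 ± 0.12 (adjusted p = 0.00189; edgeR). Cyp2a5 did not pass the test (-0.10 ± 0.26, 95% interval -0.67 to 0.47, adjusted p = 0.838, edgeR). Cyp2a12 was lower in siHnf4a by -4.62 ± 0.52 (adjusted p = 0.000402). Cyp2a22 stood at -3.15 ± 1.00 (adjusted p = 0.0545), and at -2.84 ± 0.45 with mouse as a block (adjusted p = 0.00101; edgeR). Of all genes, 7.51% were called higher and 8.67% lower in this comparison (1133 and 1309; 1596 and 472 on log2 TPM), and 14.9% and 16.3% with the block. Cyp2a22 also passed with DESeq2 (-3.17, adjusted p = 0.00489), with no filter on low counts (-3.16, 0.0251) and without siCebpa of mouse 3 (-3.68, 0.0253). It did not pass in the other 10 alternatives, which included a value of -1.51 without siCebpa of mouse 1 (adjusted p = 0.242, edgeR) and of -1.10 and -1.95 on log2 TPM with pseudocounts of 1 and 0.1 (adjusted p = 0.227 and 0.190, limma).

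In the presence of the Cebpa siRNA, the Hnf4a siRNA was again followed by low Cyp2a12, which stood at -5.06 ± 0.54 log2 units in the double knockdown against siCebpa (adjusted p = 0.000318, edgeR). Cyp2a22 was lower by -4.49 ± 1.13 (adjusted p = 0.0262), a call that was lost without any 1 of the double knockdown's libraries (-5.28, -4.21 and -4.21 without mouse 1, 2 and 3; adjusted p = 0.0515, 0.1003 and 0.0943) or without siCebpa of mouse 1 (-2.84, 0.0719), and on log2 TPM with pseudocounts of 1 and 0.1 (-1.35 and -2.88, adjusted p = 0.154 and 0.0679). Cyp2a4 was higher by 0.56 ± 0.12 (adjusted p = 0.0137), but did not pass without the double knockdown of mouse 2 (0.48, adjusted p = 0.0588) or in a fit of these 2 groups alone (0.56, 0.0864). The sum was higher by 0.44 ± 0.13 (adjusted p = 0.0488), past the threshold in 7 of 14 alternatives; leaving out any library of the double knockdown (0.47, 0.37 and 0.53 without mouse 1, 2 and 3; adjusted p = 0.0893, 0.167 and 0.0578) or siCebpa of mouse 2 (0.46, 0.110) or mouse 3 (0.31, 0.142) ended it, as did no filter on low counts (0.45, 0.0656) and a fit of these 2 groups alone (0.45, 0.167). The leave-out fits did not pair the libraries of a mouse. With mouse as a block over all libraries, adjusted p was 0.000259 for Cyp2a22, 0.00195 for Cyp2a4 and 0.00990 for the sum (edgeR). Without the block, Cyp2a5 was at -0.34 ± 0.26 (95% interval -0.91 to 0.23, adjusted p = 0.444). Of all genes, 6.51% were called higher and 6.47% lower (983 and 976; 1300 and 371 on log2 TPM).

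In the presence of the Hnf4a siRNA, the Cebpa siRNA gave no called change in the 4 genes or the sum. The sum in the double knockdown stood at -0.24 ± 0.13 log2 units against siHnf4a (95% interval -0.53 to 0.05, adjusted p = 1.00, edgeR), lower in 3 of 3 mice, and the groups did not overlap. With mouse as a block, the sum was at -0.25 (95% interval -0.48 to -0.02, adjusted p = 0.612) and Cyp2a4 at -0.25 (-0.46 to -0.04, adjusted p = 0.578; edgeR), intervals below 0 that did not pass the adjusted threshold. Without the block, Cyp2a12 was at -0.44 ± 0.53 (95% interval -1.61 to 0.73) and Cyp2a22 at -1.33 ± 1.24 (-4.07 to 1.41). Of all genes 0% were called higher and 0.00663% lower, which is 1 gene, Cebpa (-1.19 ± 0.12, adjusted p = 0.0188, edgeR). At an unadjusted p under 0.05 without the block, 146 genes were higher and 227 lower with 0 of the 4 Cyp2a genes among them, and DESeq2 called 1 higher and 3 lower.

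The departure of the double knockdown from the sum of the single effects was tested directly as an interaction. For the Cyp2a4 and Cyp2a5 sum it was -1.52 ± 0.19 log2 units (95% interval -1.93 to -1.11, adjusted p = 0.0175), and for Cyp2a4 -1.48 ± 0.17 (adjusted p = 0.0131; edgeR). Within mice 1, 2 and 3, the Hnf4a siRNA added 1.89, 1.96 and 2.04 log2 units to the sum without the Cebpa siRNA and 0.17, 0.59 and 0.60 with it. The Cebpa siRNA added 1.45, 1.29 and 1.03 without the Hnf4a siRNA and gave -0.26, -0.08 and -0.41 with it. The effect of each was thus smaller beside the other in 3 of 3 mice. These are 2 readings of 1 difference, from the libraries of the interaction test, and add no separate evidence.

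Cyp2a4 was 1 of the 13 genes called for interaction, with the second smallest p-value. Another was Cebpa itself (1.497 ± 0.18, adjusted p = 0.0131, edgeR), whose own knockdown was shallower in the double knockdown, and the part of that difference in the Cyp2a4 result was not tested. Of all genes 0.053% were called higher and 0.0331% lower, and 1.99% and 1.83% with mouse as a block. Cyp2a5 was at -1.72 ± 0.37 (adjusted p = 0.147) and at -1.67 ± 0.25 with the block (adjusted p = 0.00790; edgeR); it also passed with DESeq2 (-1.71, adjusted p = 0.00148) and with no filter on low counts (-1.71, 0.0436), and not in the other 16 of 19 alternatives. Cyp2a12 was at -0.37 ± 0.68 (95% interval -1.88 to 1.14, adjusted p = 0.912) and Cyp2a22 at -1.16 ± 1.502 (-4.47 to 2.15, adjusted p = 0.857).

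The interaction of the sum stayed between -1.65 and -1.34 in 19 alternatives and passed the threshold in 10. It missed it without any library of the double knockdown (-1.4996, -1.59 and -1.44 without mouse 1, 2 and 3; adjusted p = 0.0634, 0.0609 and 0.0833) or of siHnf4a (-1.51, -1.51 and -1.51; 0.0594, 0.0901 and 0.0521), and without siCebpa of mouse 2 (-1.501, 0.0533) or siCon of mouse 2 (-1.51, 0.0749) or mouse 3 (-1.49, 0.0680). That of Cyp2a4 passed in 13 of 19, and missed it without mouse 1 or 2 of the double knockdown (-1.46 and -1.56, adjusted p = 0.0576 and 0.0609) or of siHnf4a (-1.49 and -1.47, 0.0571 and 0.0860), or mouse 2 or 3 of siCon (-1.497 and -1.45, 0.0669 and 0.0555). The log2 values moved by no more than their SE while the adjusted p moved across 0.05. Libraries of a mouse were not paired in the leave-out fits. With mouse as a block over all libraries, the interaction was -1.51 ± 0.15 for the sum (adjusted p = 0.00135, edgeR). For Cyp2a4 it was then -1.48 ± 0.14 (adjusted p = 0.00110, edgeR).

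**Figure D4:**
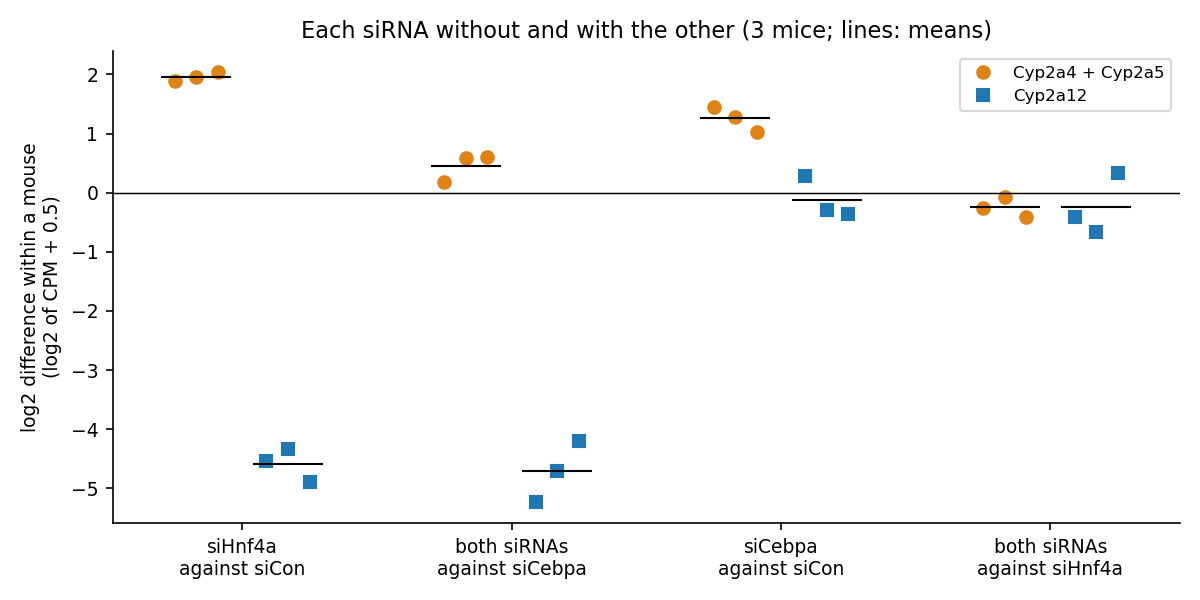
Log2 difference within each mouse (points; lines are means of 3 mice) for the Cyp2a4 and Cyp2a5 sum and for Cyp2a12, for each siRNA without and with the other. For the sum, siHnf4a gave 1.89 to 2.04 against siCon and 0.17 to 0.60 when added to siCebpa, while Cyp2a12 fell by more than 4 log2 units in both.

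The neighbourhood was read next, to see whether the changes spread along the cluster. In the stretch of chromosome 7 from 25802475 to 27181086, which starts with Cyp2s1 and runs past Cyp2t4, the last Cyp2 gene, through Egln2 and Rab4b, the annotation lists 49 genes, of which 13 were tested and 9 of those are no Cyp2a member. Of these 9, 2 were higher in the double knockdown, 1 in siHnf4a and 0 in siCebpa, and none was lower. Over all genes, 6.9%, 7.24% and 2.94% were called higher in the same order. Counts this small cannot show whether changes spread along the cluster. Of 8 tested genes in a list of named neighbours, the one called was Egln2, an oxygen-sensing prolyl hydroxylase, at 0.33 ± 0.10 in the double knockdown (adjusted p = 0.0441, edgeR). The list's median log2 fold change was 0.17, 0.43 and 0.18 in the double knockdown, siHnf4a and siCebpa, against medians of 0.00 over all genes.

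Cyp2b10, the phenobarbital-inducible P450 and the most abundant of these neighbours, was at 91.5 ± 31.5 CPM in the double knockdown, 80.0 ± 37.6 in siHnf4a and 81.5 ± 19.1 in siCebpa, against 36.9 ± 21.0 in siCon. Its log2 fold changes of 1.31 ± 0.48, 1.11 ± 0.48 and 1.14 ± 0.48 did not pass the test (adjusted p = 0.0977, 0.149 and 0.207; edgeR) and passed it with mouse as a block (0.000301, 0.00101 and 0.00159). With the block, 2 of 8 neighbours were higher and 1 lower in the double knockdown, 2 and 0 in siHnf4a, and 1 and 0 in siCebpa. The shares over all genes were then 13.8% and 15.6%, 14.5% and 15.5%, and 8.73% and 8.11%.

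The other called gene was Gm42375, an RNA annotated antisense to the start of Cyp2a4 (ENSMUSG00000108431.1, 26304421 to 26307286, minus strand), singled out after its values were seen. Its estimated counts were 53, 35 and 34 in the double knockdown and 56, 28 and 28 in siHnf4a. They were 6, 6 and 4 in siCebpa and 5, 4 and 3 in siCon. It rose by 3.34 log2 units in the double knockdown (adjusted p = 0.000299) and by 3.17 in siHnf4a (adjusted p = 0.000431), and stood at 0.49 in siCebpa (adjusted p = 0.651; edgeR). It thus moved in the libraries with the Hnf4a siRNA, whereas Cyp2a4 rose in all 3 knockdowns. Strand was not stated for the counting, so in the stretch where they overlap reads of the pair cannot be told apart.

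**Figure D5:**
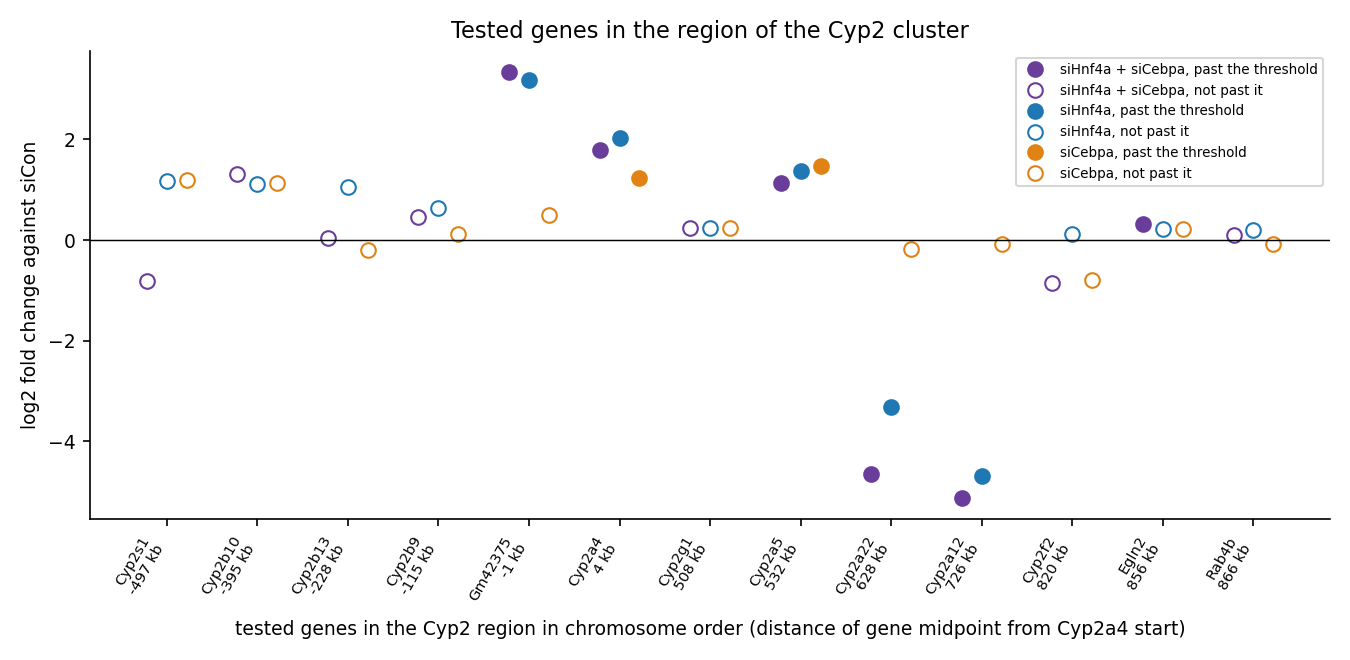
Log2 fold change against siCon of the 13 tested genes in the stretch that holds the Cyp2 cluster, in chromosome order with the distance of each gene's midpoint from the Cyp2a4 start in kb. Filled points passed the threshold and open points did not; in the double knockdown and siHnf4a, Cyp2a12 and Cyp2a22 lie below -3, and Gm42375 and Cyp2a4 are the highest.

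Genes with the pattern most like each member were found by the root mean square difference of log2 CPM, centred on the gene's siCon mean, over the 12 libraries, among genes of at least 10 CPM. For the sum the 5 nearest were Entpd5 (0.21 log2 units), Srxn1 (0.24), Blvrb (0.26), Gclc (0.30) and Nqo1 (0.31). Entpd5 is a nucleotidase of the endoplasmic reticulum, Srxn1 repairs oxidised peroxiredoxins, Blvrb reduces biliverdin and flavins, Gclc starts glutathione synthesis and Nqo1 reduces quinones. The same 5 were nearest to Cyp2a4. In Srxn1 the log2 fold changes were 2.08, 1.99 and 1.21 in the double knockdown, siHnf4a and siCebpa, beside 1.79, 2.04 and 1.24 in Cyp2a4.

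For Cyp2a5 the nearest were Ugt2b35 (0.31), Ppfibp2 (0.32), Ptpn14 (0.33), Pir (0.34) and Gsta3 (0.34). Cyp2a4 and Cyp2a5 differed from each other by 0.54, more than either from its 5 nearest genes. For Cyp2a12 they were Serpinf2, the plasmin inhibitor (0.88), Smpd3, a sphingomyelinase (0.98), Mettl7b (0.99), Proz, a clotting protein (1.04), and Baat, which conjugates bile acids (1.09). For Cyp2a22 they were Cdhr5 (0.54), F12 (0.62), Apob (0.70), Cyp2j5 (0.73) and Vtn (0.74), and Cyp2a12 differed from Cyp2a22 by 1.78. At the low counts of Cyp2a22 an offset of 0.5 CPM compresses its differences, so its nearest genes show smaller changes than its own fold changes.

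Targets of NRF2, the factor known to induce Cyp2a5 in mouse liver, were followed as a list of 16 genes. Of them 12 rose and 1 fell in the double knockdown and in siHnf4a, and 12 rose and 0 fell in siCebpa, with medians of 1.86, 1.73 and 1.04. Over all genes, 6.9%, 7.24% and 2.94% rose and 7.13%, 7.29% and 1.72% fell in the double knockdown, siHnf4a and siCebpa. The list was chosen with earlier results of these libraries known, so its direction is no independent evidence. Gstm3, a glutathione transferase, changed most, by 3.64 ± 0.29, 3.54 ± 0.29 and 2.13 ± 0.29 log2 units in the same order (adjusted p = 3.95e-05, 4.18e-05 and 0.00376; edgeR). Cbr3, a carbonyl reductase, rose by 2.84 ± 0.20, 2.65 ± 0.20 and 1.78 ± 0.20. Hmox1, the inducible haem oxygenase, was the member that fell, by 0.74 ± 0.13 in the double knockdown and 0.70 ± 0.13 in siHnf4a (adjusted p = 0.00355 and 0.00521; edgeR). In the interaction 0 of 16 were called, and 12 were lower with mouse as a block, with a median of -0.91 without it. Over all genes 0.053% were called higher and 0.0331% lower in the interaction, and 1.99% and 1.83% with the block.

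Transcripts of factors named as regulators of Cyp2a5 or Cyp2a4 in mouse formed a list of 19. It includes both siRNA targets, whose lower levels under their own siRNAs come from the treatment itself. In the double knockdown 2 rose and 4 fell, in siHnf4a 4 rose and 2 fell, and in siCebpa 0 rose and 4 fell; with mouse as a block the counts were 3 and 5, 5 and 4, and 1 and 4. The medians were 0.00, 0.15 and -0.11. Over all genes, 6.9% rose and 7.13% fell in the double knockdown, 7.24% and 7.29% in siHnf4a, and 2.94% and 1.72% in siCebpa. With the block these shares were 13.8% and 15.6%, 14.5% and 15.5%, and 8.73% and 8.11%. Nfe2l2, which encodes NRF2, was at 956 ± 117 CPM in the double knockdown, 1089 ± 59.5 in siHnf4a and 551 ± 56.6 in siCebpa, against 771 ± 66.5 in siCon. It rose by 0.50 ± 0.12 log2 units in siHnf4a (adjusted p = 0.0191) and fell by 0.49 ± 0.12 in siCebpa (adjusted p = 0.0458; edgeR), and was at 0.31 in the double knockdown (adjusted p = 0.114). In siCebpa its transcript fell while Cyp2a4 and 12 of the 16 listed NRF2 targets rose. Any part of NRF2 in the Cyp2a changes was not tested.

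Other regulators moved too. Ahr, the aryl hydrocarbon receptor, rose by 1.15 ± 0.29 in siHnf4a (adjusted p = 0.0224), and Nr1i2, the pregnane X receptor, fell by 1.16 ± 0.25 in the double knockdown (adjusted p = 0.0116; edgeR). Arnt, the partner of the aryl hydrocarbon receptor, rose by 0.38 ± 0.07 in the double knockdown (adjusted p = 0.00675) and 0.45 ± 0.07 in siHnf4a (adjusted p = 0.00289), and fell by 0.48 ± 0.07 in siCebpa (adjusted p = 0.00794; edgeR).

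P450 enzymes need electrons and haem, and 16 genes of these supplies were tested. Of them 5 rose and 2 fell in the double knockdown, 6 and 2 in siHnf4a, and 3 and 2 in siCebpa, with medians of 0.10, 0.14 and 0.10. The shares over all genes were 6.9% and 7.13%, 7.24% and 7.29%, and 2.94% and 1.72%. Besides Blvrb, Cyb5a, the cytochrome b5 that passes electrons to P450 enzymes, rose by 0.96 ± 0.13, 1.02 ± 0.13 and 0.60 ± 0.13 in the same order (adjusted p = 0.000994, 0.000733 and 0.0301; edgeR). Por, the P450 reductase, was at 319 ± 64 CPM in the double knockdown, 325 ± 39.6 in siHnf4a and 244 ± 50.3 in siCebpa, against 174 ± 23 in siCon. It rose by 0.87 ± 0.18 and 0.90 ± 0.18 log2 units in the double knockdown and siHnf4a (adjusted p = 0.00979 and 0.00865), and was at 0.49 ± 0.18 in siCebpa (adjusted p = 0.156, and 0.00892 with mouse as a block; edgeR). Alas1, which starts haem synthesis, fell by 0.71 ± 0.13 in siCebpa (adjusted p = 0.0169, edgeR). With mouse as a block, 7 genes of the list rose and 2 fell in the double knockdown and in siHnf4a, and 5 and 2 in siCebpa. The shares over all genes were then 13.8% and 15.6%, 14.5% and 15.5%, and 8.73% and 8.11%. Cyb5r3, also of this list, had a low mean in siCebpa, at 177 ± 49.2 CPM against 366 ± 46.1 in siCon. It was at 308 ± 30.9 CPM in the double knockdown and 307 ± 37.7 in siHnf4a.

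Bile acid synthesis and hydroxylation, the pathway of Cyp2a12, was followed in 13 genes, of which 11 were tested. Over all genes, 6.9% rose and 7.13% fell in the double knockdown, 7.24% and 7.29% in siHnf4a, and 2.94% and 1.72% in siCebpa. With mouse as a block these shares were 13.8% and 15.6%, 14.5% and 15.5%, and 8.73% and 8.11%. In the double knockdown 0 rose and 3 fell, in siHnf4a 2 rose and 3 fell, and in siCebpa 0 rose and 0 fell, with medians of -0.10, 0.27 and -0.14; with mouse as a block the counts were 3 and 5, 6 and 3, and 0 and 0. Baat fell in the double knockdown (-3.98 ± 0.56) and in siHnf4a (-3.14 ± 0.53; adjusted p = 0.00115 and 0.00336), as did Slc27a5, which activates bile acids for conjugation (-3.91 ± 0.65 and -3.15 ± 0.62; adjusted p = 0.00290 and 0.00738; edgeR).

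Cyp2c70, the mouse P450 that forms muricholic acids, was at 10.7 ± 2.83 CPM in the double knockdown and 17.9 ± 5.19 in siHnf4a, against 78.5 ± 49.3 in siCebpa and 58.9 ± 25.3 in siCon. It fell in the double knockdown (-2.46 ± 0.48) and in siHnf4a (-1.72 ± 0.47; adjusted p = 0.00695 and 0.0318), and was at 0.41 ± 0.45 in siCebpa (adjusted p = 0.667; edgeR). Akr1d1, a steroid reductase of the pathway, rose by 2.18 ± 0.57 in siHnf4a (adjusted p = 0.0269) and was at -0.10 in the double knockdown (adjusted p = 0.933; edgeR). Cyp7a1, the rate-limiting enzyme of the classical route, was below the filter, at a mean of 0.0940 CPM in the double knockdown, 0.501 in siHnf4a and 0.101 in siCebpa, against 0.228 in siCon.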

How the data were processed

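RNA of mouse primary hepatocytes was measured by RNA sequencing in 12 libraries. For each library the authors deposited estimated counts per gene, partly fractional and not normalised, and TPM values. Trim Galore 0.6.4, kallisto 0.4.6 and build GRCm38.p6 are named in the submitters' processing notes; which annotation, strand setting and filters were applied is not given here by any source. Groups came from the sample titles. Replicate numbers stand for mice per the labels and the series' design text: libraries of 1 mouse had correlated residuals (r from 0.156 to 0.684 over 18 pairs), and those of other mice from -0.616 to 0.203. Identifiers were mapped through GENCODE M21 (54487 of 55385 with version, 55144 without; 241 had no symbol).

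Counts were rounded and tested in edgeR 4.0.16 (R 4.3.3) by the quasi-likelihood test over all libraries: filterByExpr (0.418 CPM), TMM (factors 0.947 to 1.04), 1 mean per group, 8 residual degrees of freedom, two-sided contrasts, Benjamini-Hochberg adjustment over 15090 genes (15089 where the sum of Cyp2a4 and Cyp2a5 replaced both rows) and a threshold of 0.05. "Rose", "fell", "higher" and "lower" of log2 fold changes refer to calls past it. CPM are TMM-scaled. Values after ± are SE for log2 fold changes and SD otherwise. A check on simulated counts used independent libraries, 1 spread shared by all genes and changes in siHnf4a only. It does not bear on correlation within mice, on siCebpa or on the interaction.

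Alternatives were DESeq2 1.42.0, RLE scaling, no filter, a stricter filter (1 CPM in 3 libraries), a block for mouse (leaving 6 degrees of freedom), a fit of just the compared groups, limma 3.58.1 on log2 TPM with a pseudocount of 1 or 0.1 (genes of at least 1 TPM in 3 libraries), and leaving out each library. Alignments and words used Biopython 1.88 in Python 3.11.15, with pandas 2.3.3, numpy 2.4.6, scipy 1.17.1 and matplotlib 3.10.9. Named genes are the members, both siRNA targets, the 5 nearest genes per member, and some genes of each list. Those were taken from called or abundant genes, and not strictly by size of change. Some genes with larger changes in mean CPM, such as Gsta1 and Gsta2 of the NRF2 targets, are not described. Cyp7a1, Cyb5r3 and Gm42375 were added after their values were seen. Members and lists were chosen with earlier results of these data known.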

Additional observations from a re-analysis of the deposited data

Results flagged for a closer look

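In a test of the difference itself, the effect of 1 siRNA on the Cyp2a4 and Cyp2a5 sum differed with the presence of the other. The interaction was -1.52 log2 units for the sum (adjusted p = 0.0175) and -1.48 for Cyp2a4 (adjusted p = 0.0131; edgeR quasi-likelihood test). Both kept their sign in all 19 alternatives, and they passed the threshold in 10 and 13 of them. The sum in the double knockdown was higher than siCon and lower than siHnf4a in 3 of 3 mice. Its difference from siHnf4a, at -0.24 log2 units, was not called, nor was it with mouse as a block (-0.25, adjusted p = 0.612, edgeR). Cebpa was at 94.2 CPM in the double knockdown and 30.0 in siCebpa, against 193 in siCon, and its part in the interaction was not tested.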

How the results depend on the processing

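Against siCon, the sum, Cyp2a4 and Cyp2a12 kept direction and side of the threshold in all 14 alternatives of the double knockdown and of siHnf4a, and the sum and Cyp2a4 also in siCebpa. Cyp2a22 in the double knockdown missed the threshold on log2 TPM with a pseudocount of 1 (-1.76) and without 3 of the 6 libraries (leave-out values -5.45 to -4.06). In siHnf4a it did so with pseudocounts of 1 (-1.51) and 0.1 (-2.69) and without 5 of 6 (-3.77 to -2.73). In siCebpa, where neither was called, leaving out 1 library gave Cyp2a12 from -0.39 to 0.25 and Cyp2a22 from -1.82 to 0.42. Other uncalled values changed sign: Cyp2a5 in the double knockdown against siCebpa without siCebpa of mouse 1 (leave-out values -0.514 to 0.0653), Cyp2a5 in siHnf4a against siCebpa with pseudocounts of 1 and 0.1 (0.11 and 0.11) and without that library (-0.27 to 0.30), and the interactions of Cyp2a12 (0.0308 with a pseudocount of 1; -0.745 to 0.0644 over the leave-outs, above 0 without siHnf4a of mouse 2) and Cyp2a22 (0.16 with a pseudocount of 1; -1.95 to 0.49 over the leave-outs, above 0 without siCebpa of mouse 1). The cause was not tested. The TPM scale lowered the median log2 fold change of all genes in siCebpa to -0.12, against 0.00 with TMM. With mouse as a block, Cyp2a22 in siHnf4a against siCebpa (-2.84) and the interaction of Cyp2a5 (-1.67) passed the threshold, and no other call of a Cyp2a gene or of the sum changed. In siHnf4a against siCon 2187 genes were higher and 2346 lower with the block, against 1093 and 1100. DESeq2 called 786 genes higher and 540 lower in siCebpa against siCon (444 and 260 in edgeR), and 112 and 122 in the interaction (8 and 5 in edgeR). With the compared groups alone 23 and 22 were called in siCebpa, and without siCon of mouse 2 the interaction called 0 and 0. Cyp2a22 got no value in the compared groups alone for the double knockdown against either single one, nor an adjusted p from DESeq2 for the interaction. Depth limits Cyp2a22, whose double knockdown libraries summed to 11.6 counts.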
